A study of Mus musculus with 6 samples.

Results

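Interferon-stimulated genes, the set of antiviral genes that cells switch on in response to interferon, were followed across 6 RNA-seq libraries of mammary tumor cells. Their members were given as a list of 48 gene symbols, and 39 of them have a row among the 10995 rows of the count table. The other 9 members (Ifit1, Ifit3, Oas2, Oas3, Oasl1, Mx1, Mx2, Rsad2 and Cmpk2) were not analysed here. Raw counts of the 39 members ranged from 44 to 12236 per library.

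The tumor cells came from FVB/NJ mice carrying the MMTV-PyVT transgene, in which a mouse mammary tumor virus promoter drives the polyoma virus middle T oncogene in mammary epithelium. The transgene is shared by both groups. They consist of 3 libraries labelled wild type for Nr4a1 (WT) and 3 labelled Nr4a1 knockout (KO), and Nr4a1 encodes a nuclear receptor of the immediate early response. The sources used here do not give animal age, any treatment, the disrupted part of the allele or whether each library is a separate animal. The spread between libraries may thus be technical, and the p-values speak of that spread alone.

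Interferons of type I bind a receptor whose kinases activate a transcription factor complex that includes STAT2 and IRF9. The complex binds the interferon-stimulated response element in gene promoters, whereas interferon gamma acts mainly through gamma-activated sites. The induced genes encode sensors of foreign nucleic acid, enzymes that degrade or edit RNA, GTPases, proteins that block virus entry and budding, and the ubiquitin-like modifier ISG15. In tumors the same genes are known to be expressed by cancer cells as well as by immune and stromal cells.

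Promoter sequences show what the members share before any expression value is considered. In the RefSeq promoter windows of GRCm38.p6, which reach from 250 bases before to 50 bases after a gene's start, 38 of the 48 members had an entry. A response element match was defined as 2 copies of the letters GAAA separated by any 2 bases, on either strand. It was found in 20 of the 38 members (52.6%) and in 3.99% of all 27025 genes with an entry. With only the 250 bases before the start the shares were 42.1% and 3.46%, and with 1 mismatch allowed they were 92.1% and 38.9%. The gamma-activated site TTCNNNGAA was found in 10 of the 38 members (26.3%) and in 9.55% of all genes, and 6 members held both. The motifs can overlap each other. A match describes letters in the window and is not a measured binding site.

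The following stretches are shown because each belongs to the member that varied most across the libraries among the members of its role with a response element match. Of the ADP-ribosylation genes, Dtx3l and Parp12 had a promoter entry and neither held a match. Each is written 5′ to 3′ on the gene's own strand with the match in capitals, so that a match on the other strand reads as TTTC. Isg15 held 3 overlapping matches, at -78, -72 and -66 relative to its start, and Gbp3, Oas1a and Bst2 held 2 overlapping matches each. The matches of Ifih1 and Eif2ak2 began 32 and 18 bases after the start, and for these at most 30 bases are shown.
Isg15, chr4:156200842-156200921, minus strand: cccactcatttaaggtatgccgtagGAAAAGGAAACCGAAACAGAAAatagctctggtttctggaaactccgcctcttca
Stat2, chr10:128270251-128270330, plus strand: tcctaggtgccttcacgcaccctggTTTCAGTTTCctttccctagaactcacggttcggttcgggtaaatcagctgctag
Ifih1, chr2:62646206-62646233, minus strand: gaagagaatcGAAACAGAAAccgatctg
Oas1a, chr5:120907526-120907570, minus strand: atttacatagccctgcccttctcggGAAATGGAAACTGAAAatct
Eif2ak2, chr17:78882535-78882564, minus strand: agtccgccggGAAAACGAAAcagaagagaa
Gbp3, chr3:142559974-142560025, plus strand: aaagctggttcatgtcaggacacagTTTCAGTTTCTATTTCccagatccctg
Bst2, chr8:71537548-71537627, minus strand: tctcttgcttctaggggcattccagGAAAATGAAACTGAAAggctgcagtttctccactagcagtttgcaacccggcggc
Trim30a, chr7:104465194-104465254, minus strand: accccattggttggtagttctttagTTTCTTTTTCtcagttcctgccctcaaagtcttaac

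**Figure D1:**
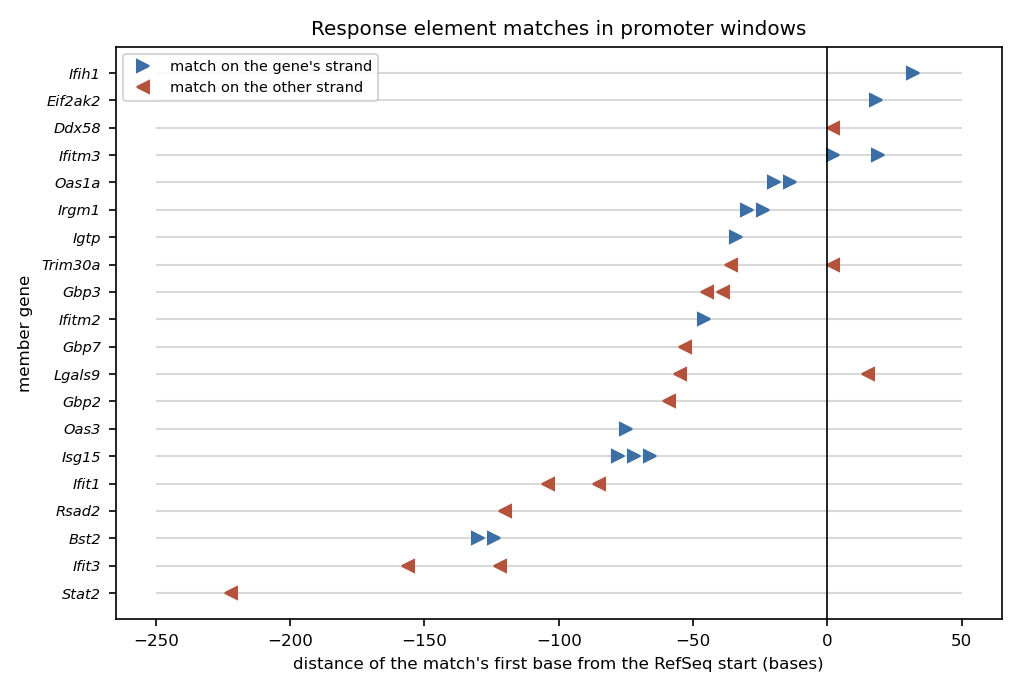
Response element matches in the promoter windows of the 20 members that held one, with the distance of the match's first base from the RefSeq start in bases on the x axis and 1 gene per row; right-pointing marks are matches on the gene's strand and left-pointing marks are matches on the other strand. Isg15 carries a run of 3 matches, and the matches of Stat2 and Ifih1 lie farthest before and after the start.

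Levels are given in CPM, the counts of a gene scaled to a common library size with TMM factors. Total counts per library ranged from 19569173 to 24188875, and no pair of libraries differed as little as counting noise (smallest chi-square per degree of freedom 23.3). WT replicate 1 stood apart on the first principal component of all rows, which carried 60.1% of the variance, at -51.3 against -2.22 to 28.8 for the others. Luminal mammary epithelial markers were present in all libraries, with 8 of 9 listed and a summed level of 3074 to 5056 CPM. Nr4a1, the targeted gene, was at 34.5, 18.6 and 16.8 CPM in WT replicates 1, 2 and 3 and at 25.1, 35.5 and 37.6 CPM in KO replicates 1, 2 and 3. Its transcript was not lower under the knockout label (log2 fold change 0.49 ± 0.32 SE, edgeR adjusted p = 0.594), so the counts do not check the labels, and WT and KO below mean the libraries so labelled.

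Comparing the groups asks whether loss of Nr4a1 goes with another level of interferon-stimulated expression in these cells. No member passed the test. edgeR called 0 members higher and 0 lower in KO at an adjusted p of 0.05, and over all 10995 rows it called 0% higher and 0% lower. At an unadjusted p under 0.05 it also had 0 members higher, where 3.7% of all rows were, and 0 lower, where 4.17% were. The smallest adjusted p among the members was 0.574. DESeq2 called 0 members after adjustment (smallest adjusted p 0.241), against 0.582% of all rows called higher. At an unadjusted p under 0.05 DESeq2 had 5 members higher, Isg15, Ifi44, Ifih1, Oasl2 and Gbp3, against 4.77% of all rows.

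Direction was nevertheless shared. The log2 fold change of KO over WT was above 0 in 38 of the 39 members, against 49.4% of all rows, and its median was 0.49, against -0.0024 for all rows. Values ran from -0.61 for Ifit2, the exception, to 2.07 for Isg15. Yet in no member did the 3 KO libraries all lie above the 3 WT libraries, although 8.39% of all rows did so, and in no member did they all lie below, as 9.05% of all rows did. The groups overlapped in every member, and the libraries taken singly show how.

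KO replicate 2 had the highest level of the 6 libraries in 38 of 39 members, whereas it was the highest in 20.6% of all rows. It reached 2 times the median of the other 5 libraries, or more, in 19 members, against 2.06% of all rows. At the low end, WT replicate 1 was the lowest library in 29 members, against 31.6% of all rows, so that this count stands on a background in which WT replicate 1 is often lowest. Both held together in 29 members, against 12.3% of all rows. A fixed order, with KO replicate 2 first, KO replicate 1 second and WT replicate 1 last, was found in 23 members and in 5.79% of all rows.

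KO replicate 3 did not share the high level of the other KO libraries. It lay below both WT replicates 2 and 3 in 31 members, against 36.5% of all rows, and it was the lowest of all 6 libraries in 8 (Stat2, Irf7, Trim25, Adar, Bst2, Rtp4, Usp18 and Herc6), against 15.9% of all rows. It exceeded all WT libraries in 2 members, Ifitm2 and Lgals9, against 24.8% of all rows. KO replicate 1 exceeded all WT libraries in 30 members, against 24.5% of all rows, and KO replicate 2 in 38, against 29.9%. Summed over the 39 members, the level was 1479, 2158 and 2118 CPM in WT replicates 1, 2 and 3 and 2397, 3601 and 1816 CPM in KO replicates 1, 2 and 3. Within the labels, the highest KO library was a median of 2.43 times the lowest KO library, and the highest WT library was 1.73 times the lowest, while all rows had medians of 1.17 and 1.23. The ratio was larger within KO than within WT in 27 members, and the share over all rows was not counted.

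**Figure D2:**
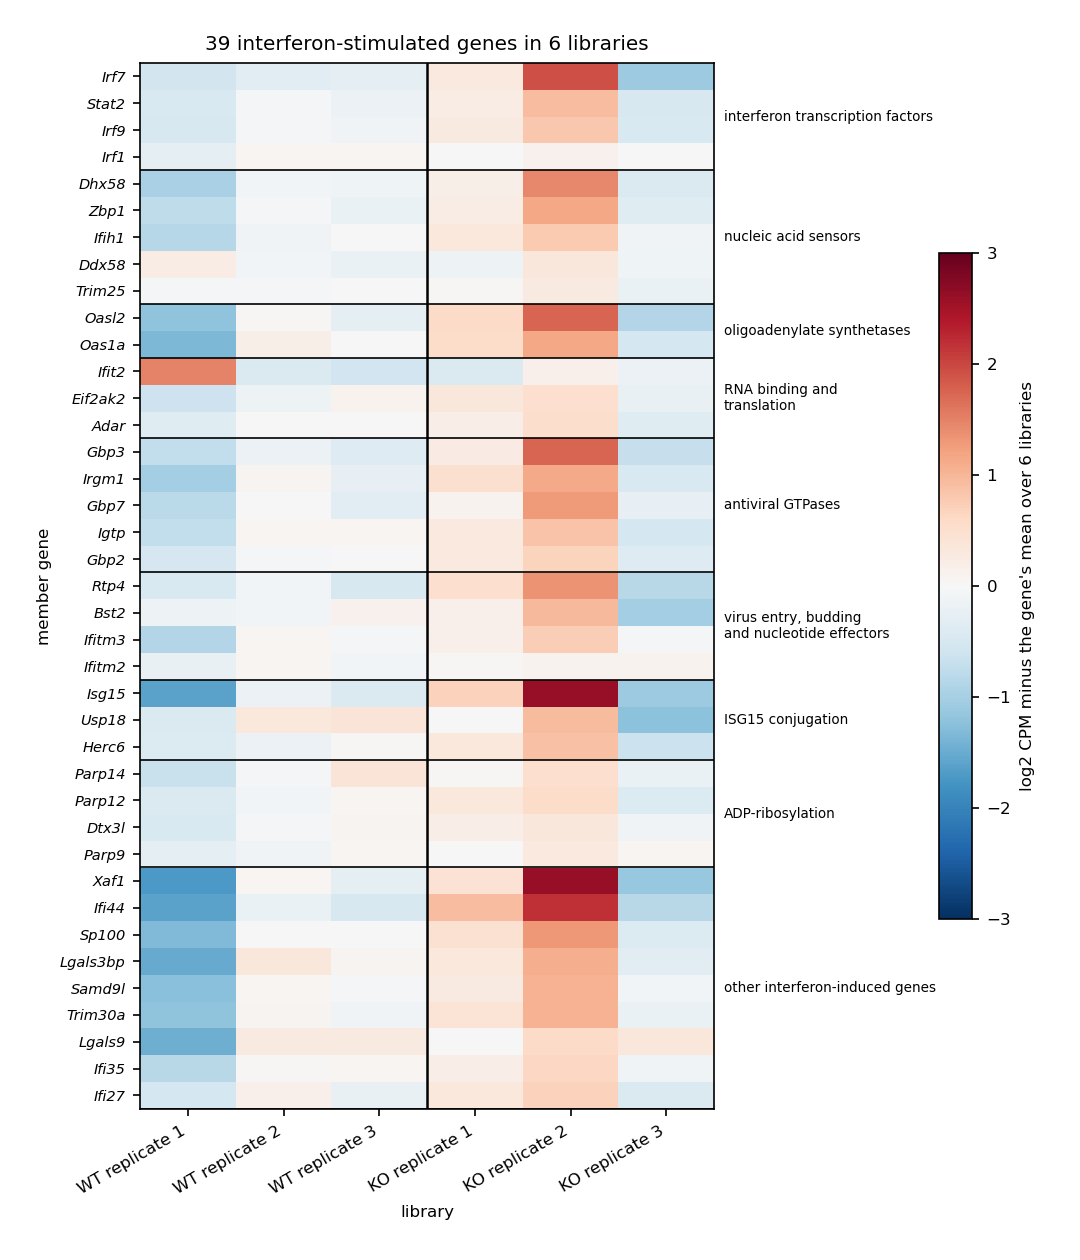
Level of the 39 members, in rows grouped by role, in each of the 6 libraries, in columns, as log2 CPM minus the gene's mean over the libraries (color scale). The column of KO replicate 2 is above the mean in all 39 members, that of KO replicate 1 in 35, and that of WT replicate 1 in 2.

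Interferon transcription factors were all listed, 4 of 4, and 0 passed the test; their median log2 fold change was 0.52. Irf7, a main inducer of the type I interferon genes, was at 5.91, 6.97 and 7.15 CPM in WT replicates 1, 2 and 3 and at 10.5, 33.0 and 4.04 CPM in KO replicates 1, 2 and 3. The KO libraries thus held both the highest and the lowest Irf7 level, an 8.18-fold span, beside a span of 1.21-fold among the WT libraries. The fitted difference was 1.25 ± 0.72 (SE) on the log2 scale (edgeR adjusted p = 0.581). Stat2, a subunit of the factor that binds the response element, was at 40.7, 54.3 and 50 CPM in WT and 66.0, 107 and 40.1 CPM in KO. As for Irf7, KO replicates 2 and 1 led and KO replicate 3 lay below every WT library. Irf1, which interferon gamma induces strongly, was nearly level, at 65.3, 81.6 and 82.0 CPM in WT and 78.7, 85.1 and 79.2 CPM in KO. Irf9, the DNA-binding partner of STAT2, ranged from 29.9 CPM in WT replicate 1 to 73.2 CPM in KO replicate 2.

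Nucleic acid sensors, 5 of 5 listed, had a median log2 fold change of 0.66, and 0 passed. Dhx58, the RNA helicase LGP2, was at 3.73, 6.88 and 6.73 CPM in WT and 8.25, 20 and 5.45 CPM in KO. Zbp1, a sensor of Z-form nucleic acid, was at 17.9, 28.9 and 26.2 CPM in WT and 35.4, 67.2 and 23.3 CPM in KO. In both genes KO replicates 1 and 2 were the highest libraries and KO replicate 3 fell inside the WT range. Trim25, a ubiquitin ligase that activates RIG-I, varied little: 131, 129 and 135 CPM in WT and 139, 164 and 118 CPM in KO. Ifih1, the RNA sensor MDA5, ranged from 10.3 to 32.2 CPM, and Ddx58, which encodes RIG-I, from 91.7 to 135 CPM. The RNA helicases of this group therefore did not vary alike, since the highest library was 5.35 times the lowest for Dhx58, 3.12 times for Ifih1 and 1.47 times for Ddx58.

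Of the oligoadenylate synthetases, which make the messenger that activates RNase L, 2 of 5 were listed. Oasl2, which is related to these enzymes, was at 8.09, 19.2 and 15.3 CPM in WT and 27.5, 62.6 and 10.1 CPM in KO (log2 fold change 1.23 ± 0.68 SE, edgeR adjusted p = 0.574). Oas1a was at 5.14, 14.8 and 12.9 CPM in WT and 19.3, 29.5 and 9.08 CPM in KO. Both placed KO replicates 2 and 1 first and WT replicate 1 last, with KO replicate 3 second lowest. Of the 31-base words in the Oas1a transcript, 68.8% also occur in other genes, mainly Oas1g, Oas1b and Oas1h, so its reads may be split among these copies.

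RNA binding and translation held the only member that ran the other way, and 3 of its 5 genes were listed. Ifit2, which binds RNA and restrains its translation, was at 42.6, 11.3 and 10.3 CPM in WT and 11.3, 17.0 and 13.5 CPM in KO. WT replicate 1 alone set its fold change of -0.61 ± 0.59 (SE) on the log2 scale (edgeR adjusted p = 0.678), which was 0.37 without that library. Among the other 5 libraries KO replicate 2 was again the highest. Eif2ak2, the kinase PKR that stops translation when it meets double-stranded RNA, was at 45.9, 63.3 and 75.9 CPM in WT and 88.6, 100 and 60.4 CPM in KO. Adar, which edits adenosine to inosine in double-stranded RNA, was at 58.2, 74.5 and 73.9 CPM in WT and 85.7, 108 and 57.5 CPM in KO. The label groups overlapped in both through KO replicate 3, and 21.4% of the words of the Adar transcript are shared with an overlapping gene, Chrnb2.

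Antiviral GTPases, 5 of 7 listed, had a median log2 fold change of 0.85, and all 5 were lowest in WT replicate 1 and highest in KO replicate 2. Gbp3, a guanylate-binding protein that acts on membranes around pathogens, was at 4.36, 6.42 and 5.51 CPM in WT and 8.58, 24.2 and 4.49 CPM in KO (log2 fold change 1.2 ± 0.62 SE, edgeR adjusted p = 0.574). Irgm1, a regulator of the immunity-related GTPases, was at 21.5, 46.4 and 37.0 CPM in WT and 61.3, 95.9 and 31.6 CPM in KO. Gbp2 spanned least, with 9.11, 12.4 and 12.7 CPM in WT and 15.8, 20.4 and 9.89 CPM in KO. In each of these genes KO replicate 3 was the second lowest library, after WT replicate 1. Gbp7 ranged from 6.49 to 27.5 CPM and Igtp, another immunity-related GTPase, from 7.41 to 22.3 CPM.

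Genes that act on virus entry and budding, 4 of 6 listed with the nucleotide effectors, had a median log2 fold change of 0.42. Rtp4, an interferon-induced receptor transporter, was at 17.7, 23.1 and 17.4 CPM in WT and 34.3, 62.3 and 13.8 CPM in KO. Bst2, or tetherin, which holds budding virus at the cell surface, was at 117, 122 and 143 CPM in WT and 145, 254 and 63.9 CPM in KO. For Bst2 the WT libraries lay close together and the KO libraries lay on both sides of them, 3.97-fold apart. Ifitm2, which blocks virus entry at the membrane, varied least of all 39 members, at 98.5, 119 and 109 CPM in WT and 117, 124 and 124 CPM in KO. Ifitm3, its neighbour in function, ranged from 166 CPM in WT replicate 1 to 513 CPM in KO replicate 2. Of their transcripts 55.5% (Ifitm2) and 20.5% (Ifitm3) of the 31-base words are shared with other genes, so the assignment of reads is uncertain.

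ISG15 and its enzymes, 3 of 3 listed with 0 calls, had log2 fold changes from 0.03 to 2.07. Isg15, the ubiquitin-like modifier, was at 3.93, 10.7 and 8.94 CPM in WT and 19.5, 74.0 and 5.65 CPM in KO. KO replicate 2 stood 8.28 times above the median of the other 5 libraries, the highest such ratio of the members, whereas KO replicate 3 was below WT replicates 2 and 3. The mean was 7.87 CPM ± 3.53 (SD, n = 3) in WT and 33.0 CPM ± 36.1 (SD, n = 3) in KO, and the fold change of 2.07 ± 0.94 (SE) on the log2 scale did not pass (edgeR adjusted p = 0.574). Usp18, the protease that removes ISG15 from proteins and restrains the interferon receptor, was at 9.16, 15.5 and 16.2 CPM in WT and 12.3, 24.0 and 5.25 CPM in KO. Its KO libraries surrounded the WT range, and the fitted difference was 0.03 ± 0.55 (SE) on the log2 scale (edgeR adjusted p = 0.987). Herc6, the mouse ligase that attaches ISG15, was at 6.25, 7.34 and 8.42 CPM in WT and 10.2, 15.2 and 5.25 CPM in KO.

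ADP-ribosylation genes, 4 of 4 listed, varied over a narrow range, with a median log2 fold change of 0.25 and 0 calls. Parp14 was at 65.8, 101 and 138 CPM in WT and 108, 148 and 91.5 CPM in KO. Parp12 was at 33.8, 42.8 and 47.3 CPM in WT and 56.7, 67.3 and 34.4 CPM in KO. Both enzymes attach single ADP-ribose units to proteins, and in both WT replicate 1 was the lowest and KO replicate 2 the highest library. Parp9, which works in a complex with the ubiquitin ligase Dtx3l, was at 66.5, 76.0 and 85.4 CPM in WT and 80.8, 99.4 and 85.1 CPM in KO. Dtx3l ranged from 46.5 to 80.9 CPM. Parp9 and Dtx3l overlap on opposite strands and, with the strand rule of counting not given, reads of the overlap may be counted for either.

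The remaining 9 listed members, interferon-induced genes of other or less settled roles, were all lowest in WT replicate 1 and highest in KO replicate 2, with a median log2 fold change of 0.79. Xaf1, an antagonist of the apoptosis inhibitor XIAP, was at 4.75, 16.2 and 12.9 CPM in WT and 21.1, 95.8 and 7.12 CPM in KO. Its 20.2-fold span from the lowest to the highest library was the widest of the members. Ifi44 was at 5.04, 13.3 and 11 CPM in WT and 29.2, 69.7 and 8.68 CPM in KO. It had the smallest unadjusted p of the members (log2 fold change 1.87 ± 0.77 SE, edgeR adjusted p = 0.574). Ifi27 spanned least among these genes, at 93.0, 149 and 114 CPM in WT and 166, 216 and 98.2 CPM in KO. Of the others, Lgals3bp, a secreted glycoprotein, ranged from 47.8 to 292 CPM, Lgals9, a galectin, from 36.3 to 150 CPM, and Sp100, of the nuclear bodies that carry its name, from 2.13 to 13.2 CPM. Samd9l ranged from 7.12 to 35 CPM, Trim30a from 2.23 to 10.7 CPM and Ifi35 from 11.9 to 32.2 CPM.

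**Figure D3:**
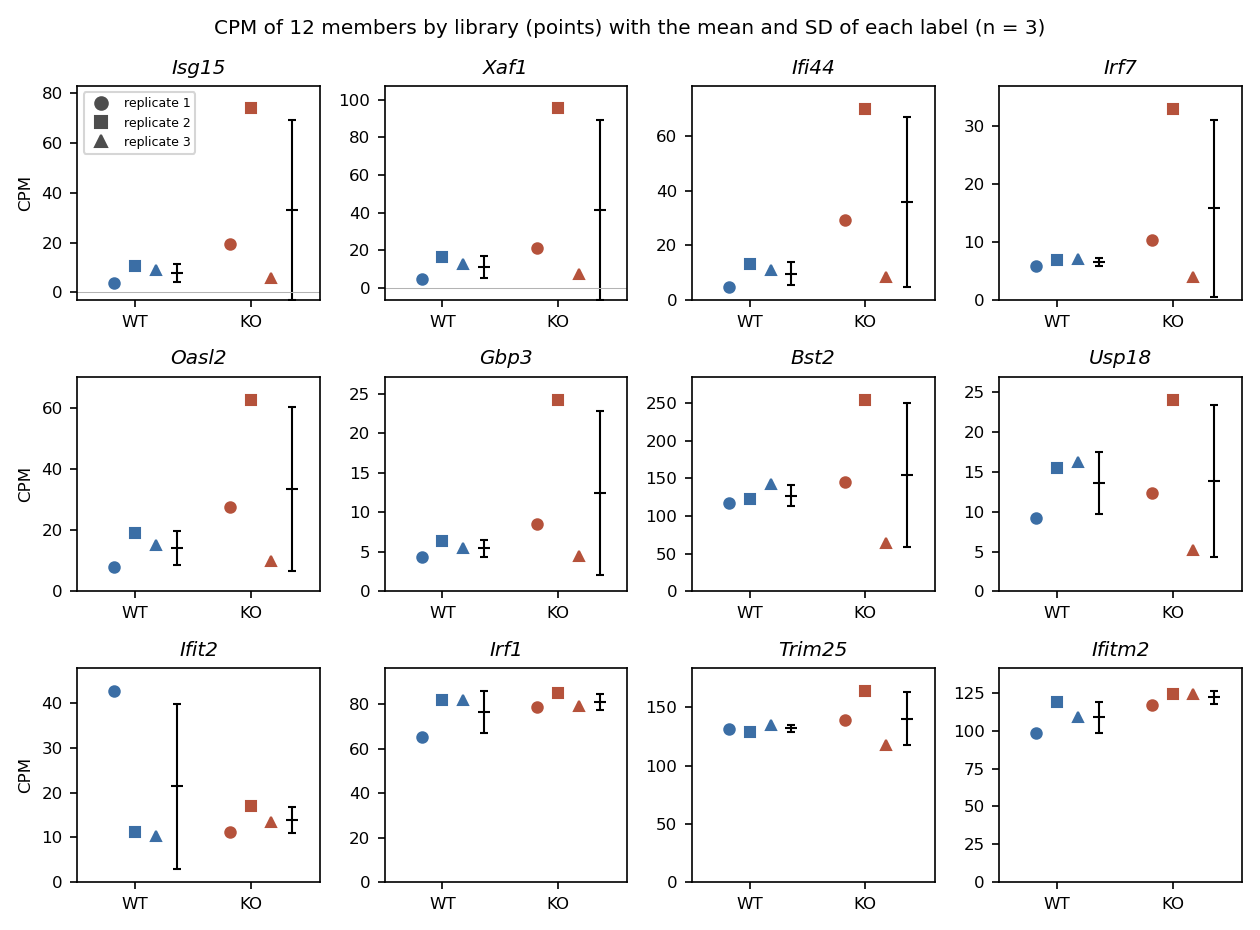
CPM of 12 members by label, with 1 point per library (circle, square and triangle for replicates 1, 2 and 3) and the mean with SD beside them (n = 3); each panel has its own linear y axis, which includes 0. KO replicate 2 is the highest point in 11 panels, and Ifit2 is the panel led by WT replicate 1.

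Members differed in how widely they varied. The highest library was a median of 3.76 times the lowest, against 1.35 times over all rows, and the span ran from 1.26-fold (Ifitm2) to 20.2-fold (Xaf1). It was 2-fold or more in 31 members and 5-fold or more in 10: Xaf1, Isg15, Ifi44, Irf7, Oasl2, Sp100, Lgals3bp, Oas1a, Gbp3 and Dhx58. Members with low levels varied more. On a scale of CPM per kilobase of annotated exon, which allows levels to be compared between genes, Ifitm3 had the highest mean level at 478, followed by Ifitm2 at 176, Bst2 at 156 and Ifi27 at 94.8, and Sp100 the lowest at 0.82. The 19 members above the median level of 9.39 CPM per kilobase had a median span of 2.25-fold, and the 20 at or below it had a median span of 4.70-fold. The same split was not made over all rows, so this difference is not shown to be particular to the members.

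Members with and without an exact response element match varied about alike. Of the 32 members with both a row and a promoter entry, the 16 with a match had a median span of 3.54-fold and the 16 without had 3.52-fold. With 1 mismatch allowed, 30 of the 32 held a match (93.8%), against 31.2% of all genes with a row and an entry. Members without an exact match may thus hold a near match, so the split does not show whether the element goes with a wide span. KO replicate 2 exceeded the median of the other 5 libraries by a median factor of 1.97 with a match and 1.95 without. Isg15, with the run of 3 matches printed above, spanned 18.9-fold, while Xaf1, with none, spanned 20.2-fold and Ifitm2, with 1, spanned 1.26-fold.

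How far the shared direction rests on single libraries was measured by leaving them out. Without KO replicate 2 the median log2 fold change of the members fell from 0.49 to 0.20, and 33 of 39 were above 0. Without WT replicate 1 it was 0.37, and 36 were above 0. With both left out, a setting chosen after seeing the data, the median was 0.04, 28 were above 0, and the groups did not overlap in 3 members. These were Ifit2 with KO above, as in 16.8% of all rows, and Irf1 and Usp18 with KO below, as in 17.1% of all rows. Without KO replicate 3 the median was 0.76; the 2 remaining KO libraries then lay above all WT libraries in 30 members, against 17% of all rows, and 21 members had an edgeR unadjusted p under 0.05 on the higher side, against 3.83% of all rows. No member passed after adjustment in any of these fits. Without WT replicate 2 the median was 0.65, without WT replicate 3 it was 0.61, and without KO replicate 1 it was 0.57. Among the roles, the medians without KO replicate 2 ranged from 0.06 for RNA binding and translation to 0.39 for the oligoadenylate synthetases.

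**Figure D4:**
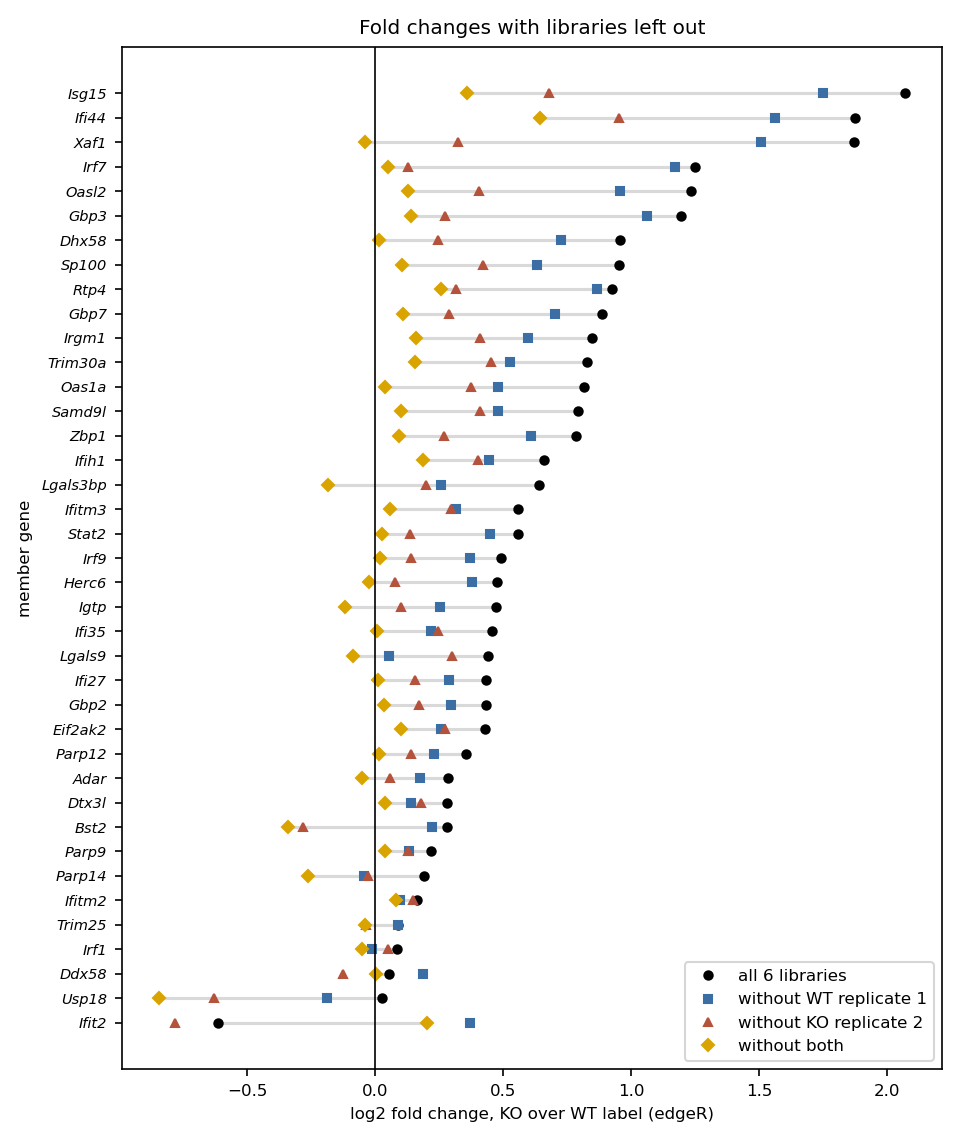
Log2 fold change of KO over WT (edgeR, x axis) for the 39 members (y axis, ordered by the value in all 6 libraries): circles are all 6 libraries, squares leave out WT replicate 1, triangles leave out KO replicate 2 and diamonds leave out both. The value of Isg15 moves from 2.07 to 0.68 without KO replicate 2 and to 0.36 without both.

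Genes that act before and beside the members were counted from lists of the pathway. Of the interferon receptors and JAK-STAT genes, 11 of 11 were listed, 0 passed the test and the median log2 fold change was -0.04. Ifnlr1, a receptor chain for interferon lambda, was at 63.2, 30 and 45.7 CPM in WT and 26.0, 23 and 37.0 CPM in KO. Its partner chain Il10rb was at 27.1, 22.1 and 21.7 CPM in WT and 18.8, 17.5 and 23.6 CPM in KO. KO replicate 2 was the lowest library for both chains.

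Of the genes that lead from nucleic acid sensing to interferon induction, 15 of 20 were listed and 0 passed after adjustment; the median log2 fold change was -0.10. Traf3, an adaptor of this pathway, was at 132, 115 and 127 CPM in WT and 105, 93.0 and 111 CPM in KO. The groups did not overlap, with KO below, as in 9.05% of all rows. KO differed from WT by -0.28 ± 0.09 (SE) on the log2 scale (edgeR adjusted p = 0.574). Irak4, a kinase of Toll-like receptor signalling, also did not overlap, on the higher side, as in 8.39% of all rows. It was at 16.6, 23.3 and 24.0 CPM in WT and 25.9, 27 and 26.9 CPM in KO. Tank, which binds TRAF proteins, was at 65.1, 74.5 and 75.5 CPM in WT and 75.1, 82.3 and 88.6 CPM in KO.

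Feedback and nucleic acid clearance genes, 12 of 14 listed, had a median log2 fold change of 0.02. KO replicate 2 was the highest library in 0 of them, against 20.6% of all rows. Ptpn6 and Ptpn2, phosphatases that act on JAK-STAT signalling, differed by 0.25 ± 0.12 (SE) and 0.18 ± 0.14 (SE) on the log2 scale, and Irf2, an antagonist of IRF1, by -0.12 ± 0.10 (SE). None of the 12 passed. Genes of interferon gamma response and antigen presentation, 16 of 22 listed, had a median of 0.10 and 0 calls. In 5 of these KO replicate 2 was the highest library, against 20.6% of all rows. Psmb10, a subunit of the immunoproteasome, was at 10.4, 18.1 and 17.8 CPM in WT and 20.4, 23.6 and 17.2 CPM in KO. Cd74, the invariant chain of MHC class II, was at 11.3, 6.93 and 11.3 CPM in WT and 10.8, 20 and 10.6 CPM in KO. Psme2, a subunit of a proteasome activator, had a log2 fold change of 0.14 ± 0.11 (SE). H2-T23, a non-classical MHC class I gene singled out after its values were seen, was at 45.2 CPM in WT replicate 1 and 67.3 CPM in KO replicate 3 but between 3.31 and 4.0 CPM in the other 4 libraries. WT replicate 1 and KO replicate 3 were the lowest libraries for H2-D1, at 450 and 517 CPM against 879 to 1110 CPM. The same held for H2-Q4, at 20.8 and 25.3 CPM against 52.6 to 70.5 CPM, and for H2-Ab1, but not for H2-K1. The cause of this split was not tested.

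A further list held interferon-induced genes outside the members. Of its 57 genes, 29 were listed. Among these 25 had a log2 fold change above 0, against 49.4% of all rows, and the median was 0.26. KO replicate 2 was the highest library in 23, against 20.6% of all rows. None passed after adjustment, and 3 had an edgeR unadjusted p under 0.05, all on the higher side, against 3.7% of all rows. The 3 were Slfn5, a growth regulator of the Schlafen family, Parp11, an ADP-ribosyltransferase, and Pnpt1, a mitochondrial RNA-degrading enzyme. Slfn5 was at 2.86, 6.65 and 2.82 CPM in WT and 11.9, 22.3 and 7.72 CPM in KO, so that all KO libraries, replicate 3 included, lay above all WT libraries (log2 fold change 1.76 ± 0.53 SE, edgeR adjusted p = 0.574). Parp11 was at 14.2, 15.0 and 13.7 CPM in WT and 17.8, 20.1 and 17.2 CPM in KO, and Pnpt1 was at 24.1, 27 and 26.4 CPM in WT and 30.2, 38.2 and 29.7 CPM in KO. With Slfn9, chosen after its values were seen, these were the 4 genes of the list whose groups did not overlap. In all 4 KO lay above, as in 8.39% of all rows.

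Markers of other cell types also differed between the libraries. Macrophage markers, 9 of 12 listed, summed to 413, 715 and 395 CPM in WT replicates 1, 2 and 3 and to 1117, 1018 and 728 CPM in KO replicates 1, 2 and 3. The 5 of 6 listed pan-leukocyte markers summed to 42.6, 56.1 and 40.6 CPM in WT and 78.3, 89.0 and 58.2 CPM in KO. KO replicates 1 and 2 thus led both marker sums as they led the members' sum. Only with Lyz2, the most abundant marker, did KO replicate 3 exceed WT replicate 2 in the macrophage sum. Of the 9 markers, 8 were lower in KO replicate 3 than in WT replicate 2. Without Lyz2, a step that was not planned, the sums were 138, 185 and 138 CPM in WT and 295, 337 and 157 CPM in KO. KO replicate 3 thus still lay above WT replicates 1 and 3, whereas in the members' sum it lay below WT replicates 2 and 3. Fibroblast markers, 7 of 9 listed, summed to 2256, 5476 and 3122 CPM in WT and 4852, 8879 and 6042 CPM in KO. Pericyte and smooth muscle markers, 8 of 8 listed, summed to 336, 1123 and 836 CPM in WT and 1217, 2021 and 917 CPM in KO. This sum rested mainly on Acta2, at 154, 785 and 612 CPM in WT and 800, 1400 and 542 CPM in KO. In 5 of the 8 markers all KO libraries, replicate 3 included, lay above all WT libraries, against 8.39% of all rows. Notch3 alone had a log2 fold change below 0, at -0.29. For both stromal lists WT replicate 1 was the lowest library and KO replicate 2 the highest, as for most members. KO replicate 3, however, was the second highest library in the fibroblast sum, unlike in the members' sum. Of the endothelial and adipocyte markers 1 each was listed, Esam and Fabp4. For both all KO libraries lay above all WT libraries, as in 8.39% of all rows. Esam was at 2.28, 4.59 and 4.24 CPM in WT and 11.3, 17.8 and 10.7 CPM in KO (log2 fold change 1.84 ± 0.34 SE, edgeR adjusted p = 0.574, DESeq2 adjusted p = 0.000312). Fabp4 was at 2.71, 4.27 and 2.45 CPM in WT and 47.0, 78.1 and 26.6 CPM in KO, and its log2 fold change of 4.0 ± 0.48 (SE) was called by DESeq2 but not by edgeR (adjusted p = 0.287). Both were highest in KO replicate 2. Of the other markers, DESeq2 called 2 of pericytes and smooth muscle and 1 of leukocytes higher, and 1 of luminal epithelium lower. Over all 10995 rows it called 64 higher and 39 lower. Luminal epithelial markers were lowest in KO replicate 2, with sums of 4541, 5056 and 5034 CPM in WT and 4048, 3074 and 3530 CPM in KO. In 3 of the 8 listed all KO libraries lay below all WT libraries, against 9.05% of all rows. Among the basal epithelial (5 of 5 listed), neutrophil (2 of 7) and conventional dendritic cell (1 of 8) markers, KO replicate 2 was highest in 0. It was the highest library in 20.6% of all rows.

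T cell, NK cell and B cell markers were not analysed here, with 0 of 8, 0 of 8 and 0 of 6 listed. Of the plasmacytoid dendritic cell markers, a cell type known for making type I interferon, 2 of 8 were listed, Tcf4 and Il3ra. Il3ra was highest in KO replicate 2, at 12.2 CPM against 5.57 to 11.2 CPM in the other libraries, and Tcf4 was highest in WT replicate 2, at 84.6 CPM against 83.9 CPM in KO replicate 2. In these bulk libraries more cells of a type and more RNA per cell cannot be told apart, and the part of the other cell types in the members' levels was not tested.

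**Figure D5:**
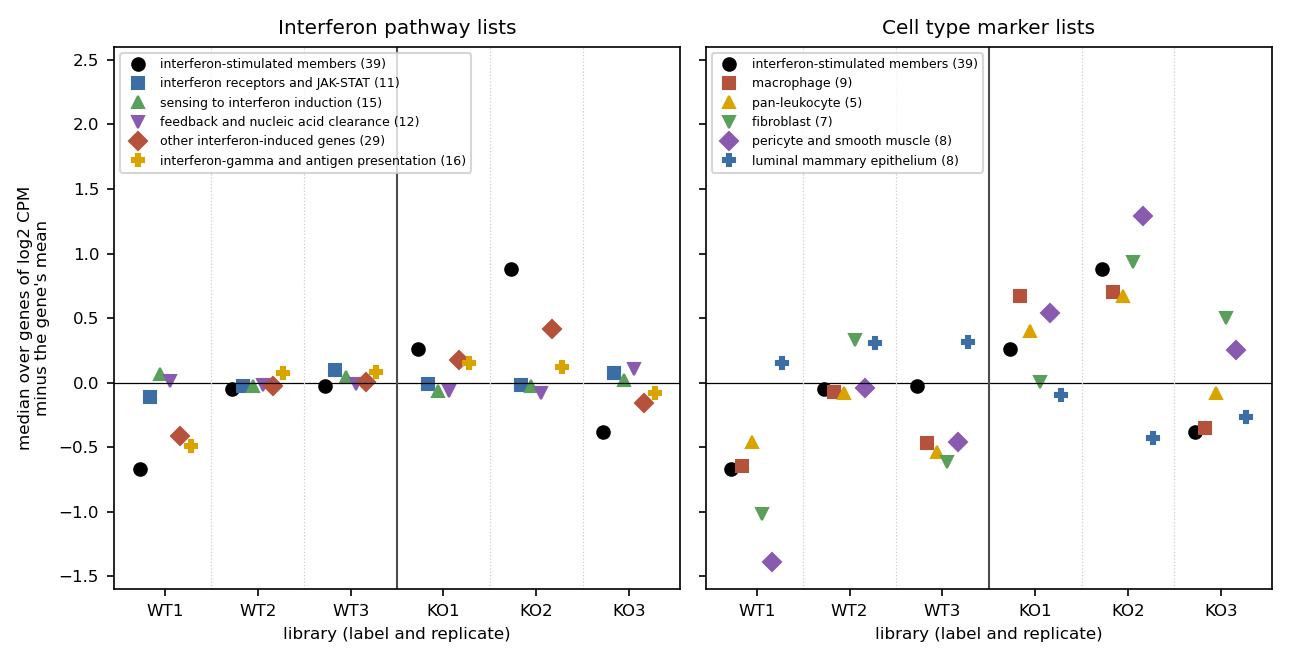
Median over the genes of each list of log2 CPM minus the gene's mean (y axis) in each library (x axis), for the members and 5 pathway lists on the left and for the members and 5 cell type marker lists on the right, with the number of listed genes in the key. The members lie at -0.67, -0.05 and -0.03 in WT replicates 1, 2 and 3 and at 0.26, 0.88 and -0.38 in KO replicates 1, 2 and 3.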

How the data were processed

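Messenger RNA of 6 libraries, 3 per label, was analysed from 1 table of raw counts per gene symbol, as deposited by the authors. Per the submitters' processing notes, CASAVA 1.8, HISAT2 and featureCounts were used with GRCm38 (mm10). The sources used here do not give the annotation, the strand rule or any filter on rows. Counts were tested with edgeR 4.0.16 (R 4.3.3; filterByExpr, which removed 0 rows, TMM and robust quasi-likelihood F test, group as the only term) with Benjamini-Hochberg adjustment over 10995 rows at 0.05. The SE is the absolute log2 fold change divided by the square root of F. DESeq2 1.42.0 and limma-voom (limma 3.58.1) were alternatives, with other scalings, filters, a replicate block and each library left out. The test was also run on simulated counts drawn independently for each gene. These lack the shared differences between libraries seen here, so they do not show how the test performs on these data. Exon lengths and shared 31-base words came from the GENCODE annotation of GRCm38, and promoters from RefSeq (GRCm38.p6). Members, lists and tests were chosen with earlier results of these data known. In each role the 2 members of widest and the 1 of narrowest span are given in every library, and in each pathway list up to 3 genes of smallest unadjusted p are named; 1 such gene is not reported here.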

Additional observations from a re-analysis of the deposited data

How the results depend on the processing

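The number of members with an unadjusted p under 0.05 on the higher side was 0 with edgeR as reported, against 3.7% of all rows, and 5 with DESeq2, against 4.77%. With edgeR it was 1 with the replicate block and 0 to 21 with 1 library left out. The highest was without KO replicate 3, against 3.83% of all rows. In both directions together, 862 of the 10995 rows had such a p with the block and 388 to 1365 with 1 library left out. Members whose groups did not overlap with KO above numbered 0 as reported, against 8.39% of all rows, and 0 to 30 with 1 library left out. The highest was again without KO replicate 3, against 17% of all rows. Without WT replicate 1 and KO replicate 2 together, chosen after seeing the data, 1 lay above and 2 below, against 16.8% and 17.1% of all rows. Response element matches rose from 20 to 35 members with 1 mismatch. Under other scalings, filters and limma-voom 0 members passed. Of the same-numbered libraries, only those of replicate 2 deviated together (r = -0.11, 0.35 and -0.26 for replicates 1, 2 and 3). WT replicate 1 and KO replicate 3, of unlike number, did so as much (r = 0.35). The replicate numbers were therefore not taken to pair the libraries. The block left 37 members above 0. Usp18 turned to -0.15 on the log2 scale with the block and -0.13 with limma-voom. With 1 library left out the log2 fold change ranged from -0.014 to 0.14 for Irf1, -0.94 to 0.37 for Ifit2, -0.63 to 0.41 for Usp18, -0.045 to 0.48 for Parp14, -0.037 to 0.20 for Trim25 and -0.28 to 0.65 for Bst2. Without both libraries it was -0.052 for Irf1, -0.039 for Trim25, 0.20 for Ifit2, -0.050 for Adar, -0.34 for Bst2, -0.85 for Usp18, -0.025 for Herc6, -0.26 for Parp14 and -0.039 for Xaf1. The cause of these turns was not tested. The lowest member count was 44, and precision is limited by having 3 libraries per label.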
